A study of Mus musculus with 23 samples.

Results

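The genes described here encode the subunits of the mitochondrial respiratory chain and ATP synthase, measured as transcripts in mouse brain. They were chosen by symbol: nuclear-encoded subunits of complexes I to V (Nduf, Sdh, Uqcr, Cox4 to Cox8 and Atp5 genes) and the mt- genes carried by mitochondrial DNA, excluding pseudogenes, at a mean of at least 1 CPM (a gene's counts per mega-count of its library) over all 23 libraries. Of 22310 named genes in the count table, 97 had such a symbol and 94 reached that level, 81 of them nuclear and 13 mitochondrial. The 3 left out by level were Cox7b2, Cox8b and Cox8c. The nuclear genes comprised 36 of complex I, 4 of complex II, 8 of complex III, 16 of complex IV (with Ndufa4, now counted as a complex IV subunit) and 17 of complex V, and the mt- genes comprised 7 of complex I, 1 of complex III, 3 of complex IV and 2 of complex V. All 94 passed the filter on low counts and were among the 16209 genes tested. The CPM values of libraries and groups below are also scaled between libraries, as described under the processing.

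Brain RNA came from C57BL/6J mice, either wild type (WT) or carrying Csf1R-G793A, an allele named for a substitution in the receptor for colony-stimulating factor 1, on which microglia depend for survival. For 14 days the mice ate control chow, chow with PLX3397 at 290 mg/kg or chow with PLX5622 at 1200 mg/kg, 2 small-molecule CSF1R inhibitors. The design compares the allele with WT on control chow, each inhibitor with control chow in WT mice, and asks whether the allele prevents the inhibitors' effects. The WT control group has 3 libraries, and G793A control, WT PLX3397, G793A PLX3397, WT PLX5622 and G793A PLX5622 have 4 each. Age, sex, brain region and whether 1 or both copies of the gene carried the allele are not in the labels. The labels give each library a number of its own without saying that it stands for a mouse, and a p-value below speaks only of the spread among libraries, which may be technical.

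The respiratory chain passes electrons from NADH (complex I) and succinate (complex II) through ubiquinone, complex III, cytochrome c and complex IV to oxygen, and complex V uses the resulting proton gradient to make ATP. Complexes I, III, IV and V are mosaics of both genomes: their mt- subunits are transcribed inside mitochondria as long polycistronic RNAs, while the nuclear subunits are transcribed from genes scattered over the chromosomes. Nuclear respiratory factor 1 (NRF1) and the ETS-family factor GABPA (nuclear respiratory factor 2) are known activators of the nuclear genes, and brain, most of all its neurons, relies on oxidative phosphorylation for ATP.

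Promoter stretches of nuclear genes are shown because these genes, unlike the mt- genes, are known targets of the nuclear factors, and because many of them lay on the same side of 0 in the G793A comparisons below. RefSeq promoters (build GRCm38.p6, 250 bases before to 50 after the start) were matched by symbol for 67 of the 81 nuclear genes. The letters GCGCANGCG, a core of the NRF1 motif, stood on either strand in 20 of the 67 (29.9%), against 7.03% of the 27025 genes in the promoter table. The letters CCGGAAG, a core of the ETS motif, stood in 17 (25.4%), against 9.93%, and 6 genes held both (8.96% against 1.49%). At least 1 of them stood in 31 of the 67 (46.3% against 15.5%), by complex in 12 of 32 genes of complex I, 3 of 3 of complex II, 3 of 5 of complex III, 3 of 12 of complex IV and 10 of 15 of complex V. The 2 motifs can share at most 1 end base, NRF1 matches on both strands can overlap (the capitals then cover both), a match is a run of letters only, and no binding was measured. The stretches below run 5′ to 3′ along the gene's own strand, upstream of the start, with the matched letters (either strand) in capitals.
Ndufa8 (complex I, chr2:36049339-36049387, minus strand): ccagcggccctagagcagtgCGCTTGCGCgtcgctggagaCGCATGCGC
Sdhd (complex II, chr9:50603869-50603948, minus strand): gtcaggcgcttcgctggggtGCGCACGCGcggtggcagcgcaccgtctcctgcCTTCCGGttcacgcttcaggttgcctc
Uqcr11 (complex III, chr10:80406861-80406907, minus strand): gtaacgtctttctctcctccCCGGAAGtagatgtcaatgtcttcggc
Cox6a1 (complex IV, chr5:115348959-115349140, minus strand): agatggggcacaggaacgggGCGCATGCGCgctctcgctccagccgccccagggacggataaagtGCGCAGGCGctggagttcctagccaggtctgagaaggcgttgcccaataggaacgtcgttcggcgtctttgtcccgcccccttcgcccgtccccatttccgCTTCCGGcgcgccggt
Cox6b1 (complex IV, chr7:30626116-30626162, minus strand): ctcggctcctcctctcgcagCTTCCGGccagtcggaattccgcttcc
Atp5c1 (complex V, chr2:10080433-10080469, minus strand): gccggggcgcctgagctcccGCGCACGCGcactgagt
Atp5l (complex V, chr9:44920928-44920992, minus strand): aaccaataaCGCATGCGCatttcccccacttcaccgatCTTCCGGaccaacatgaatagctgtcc
Sdhd, Cox6a1 and Atp5l show both kinds of letters, Ndufa8 and Atp5c1 only those of NRF1, and Cox6b1 and the printed stretch of Uqcr11 only those of ETS.

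Library totals lay between 26.3 and 48.2 mega-counts. Neuronal marker genes summed to 5915 to 6855 CPM in WT controls, and the 6 microglial markers (Csf1r among them) fell from 304 to 325 CPM there to 69.0 to 98.6 CPM in WT PLX3397 and 35.4 to 71.4 CPM in WT PLX5622, all 6 called in each (edgeR's quasi-likelihood test, Benjamini-Hochberg adjusted p under 0.05). In the G793A groups they summed to 260.0 to 326 CPM on control chow, 231 to 276 CPM on PLX3397 and 226 to 275 CPM on PLX5622. A substitution leaves the Csf1r transcript in place, so its level does not check the genotype labels. Libraries that stood apart were WT PLX5622 replicate 1 and G793A PLX5622 replicate 2 (Cbln3, a cerebellar granule cell gene, over 10 CPM), 4 libraries with Npas4, an activity-induced gene, over 100 CPM, and G793A control replicate 3 and G793A PLX5622 replicate 3, with more than 6% of their counts in mt- genes.

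In these libraries, selected with oligo-dT beads, the mitochondrial messages held far more counts per length than the nuclear ones. The part of that selection in the levels was not tested. As CPM per kb of transcript, averaged over 23 libraries, the mt- genes ranged from 1414 (mt-Co2) to 8844 (mt-Co1, the catalytic subunit of complex IV) with a median of 2852, and the nuclear genes from 1.52 (Cox4i2) to 601 (Atp5b, the catalytic subunit of ATP synthase) with a median of 122. By complex the nuclear median ran in the order II (76.4), I (83.1), III (153), V (194) and IV (212 CPM per kb). Complexes I and II lay close together beside the ranges they spanned, from 20.2 (Ndufb4) to 170.3 (Ndufb9) for complex I and from 28.7 (Sdhc) to 159.6 (Sdha) for complex II. The 7 nuclear core subunits of complex I that carry its redox centres had a median of 84.4 CPM per kb and its 29 accessory subunits one of 81.9.

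Where a subunit has alternative isoforms, a single isoform of Cox4, Cox6a and Cox6b made up nearly all of the transcript. On the CPM per kb scale Cox4i1 made up 99.7% (99.6% to 99.8%) of the Cox4 pair as the median (lowest to highest) over 23 libraries, against 0.302% (0.199% to 0.447%) for Cox4i2, the oxygen-responsive isoform best known from lung. Cox6a1 made up 97.6% (96.8% to 98.1%), against 2.44% (1.87% to 3.25%) for the heart and muscle isoform Cox6a2. Cox6b1 made up 99.1% (98.7% to 99.4%), and the testis isoform Cox6b2 0.920% (0.625% to 1.29%). Among the Cox7a genes, Cox7a2 held 64.7% (62.2% to 67.3%), the related gene Cox7a2l 34.3% (31.4% to 36.4%), and the muscle isoform Cox7a1 0.978% (0.615% to 1.40%). The 3 genes for the identical c-ring subunit of ATP synthase were used side by side, with 58.2% (55.4% to 62.5%) for Atp5g3, 36.8% (32.8% to 39.8%) for Atp5g1 and 5.04% (3.26% to 7.05%) for Atp5g2. The order of isoforms within each family was the same in all 23 libraries.

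Several of these genes have near-identical copies elsewhere in the genome, and estimated counts can be split or shared between copies. Measured on GENCODE vM21 transcripts, over 50% of the 31-base words of 7 mt- genes also occur in a transcript of another gene: mt-Co2 (every word), mt-Co3 (99.9%), mt-Atp6 (99.5%), mt-Nd4l (98.9%), mt-Nd3 (98.1%), mt-Co1 (63.9%) and mt-Nd4 (62.8%), nearly all in unprocessed nuclear pseudogenes. The words of mt-Nd1 occur in no other gene. Of the nuclear genes, 7 passed the same mark (Atp5g1, Atp5g2, Atp5h, Atp5l, Atp5o, Cox7c and Uqcrb) and 32 shared no word, with a median of 2.20%. The copy that shares most words with each of these genes is not named in the count table, except Donson for Atp5o. Whether counts were shared with the copies was not tested, so the values of these genes are uncertain. The level of mt-Co2 relative to mt-Co1 ranged from 4.63% to 11.1% across libraries, while that of mt-Nd4 stayed between 26.8% and 28.9%. mt-Nd6 is coded on the strand opposite to the other 12. The sources used here do not give the strand setting of the authors' counting, so its reads cannot be told apart from antisense reads of the same stretch.

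The mt- share of all counts spread more within the G793A groups (SD 0.76 to 1.46 percentage points) than within the WT groups (0.34 to 0.36). Group means ran from 3.84% in WT PLX5622 to 5.13% in G793A controls. It was 4.57, 3.86 and 4.19% in the WT controls, 4.35, 3.76, 7.10 and 5.29% in the G793A controls, 4.09, 4.49, 4.096 and 4.80% in WT PLX3397, 3.80, 5.48, 4.02 and 4.14% in G793A PLX3397, 3.77, 4.304, 3.47 and 3.80% in WT PLX5622 and 3.904, 5.06, 6.52 and 3.68% in G793A PLX5622. All groups overlapped, and G793A control replicate 3 and G793A PLX5622 replicate 3 stood highest. The 81 nuclear genes together held 1.13, 1.00 and 1.02% in the WT controls and 1.14, 1.03, 1.31 and 1.18% in the G793A controls, and from 1.01% to 1.14% in the libraries on inhibitor. The highest nuclear share was again that of G793A control replicate 3.

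**Figure D1:**
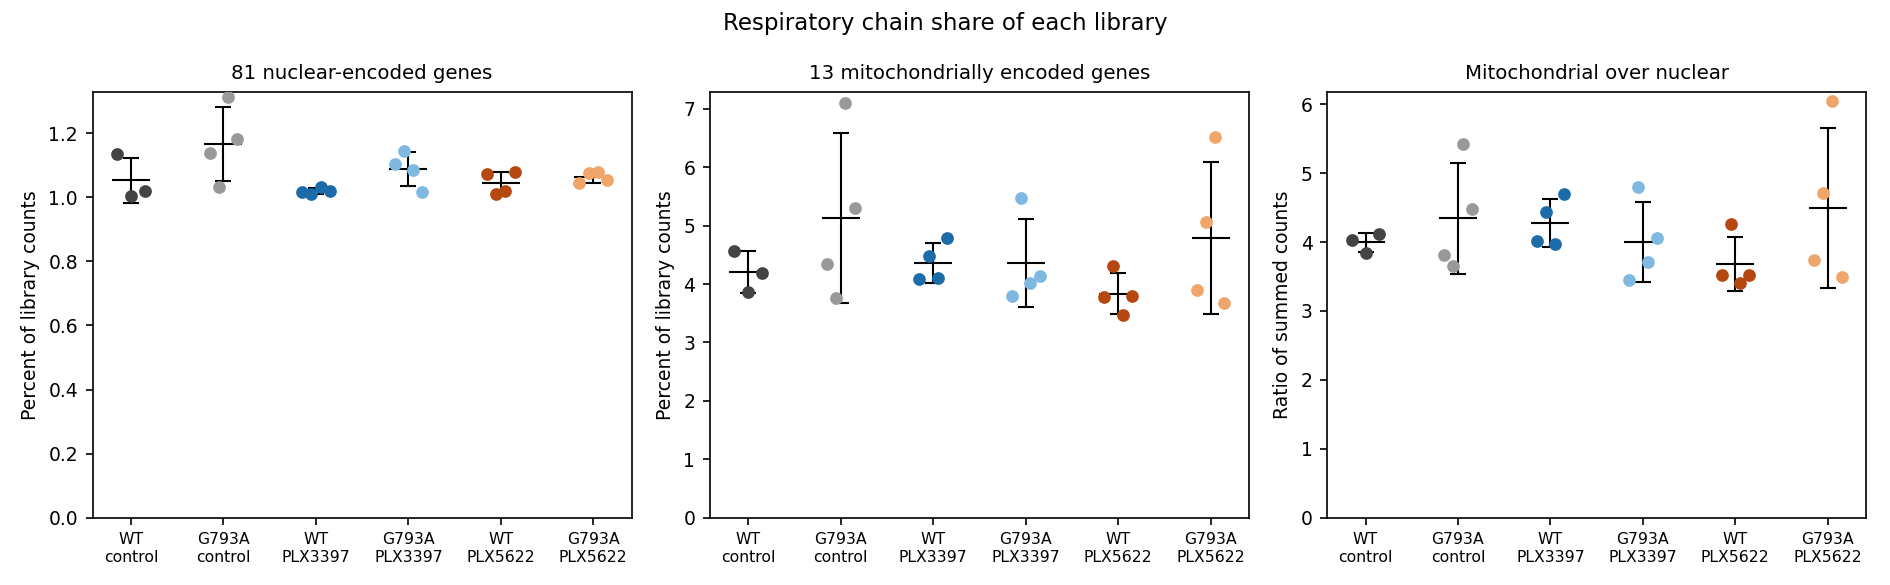
Percent of each library's counts in the 81 nuclear-encoded genes (left) and the 13 mt- genes (middle), and the mt- sum over the nuclear sum (right), by group. Points are libraries, the horizontal bar is the group mean and the error bar 1 SD (n = 3 for WT control, 4 otherwise); G793A control replicate 3 is highest on the left at 1.31% and in the middle at 7.10%, and G793A PLX5622 replicate 3 on the right at 6.04.

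The spread of the mt- genes within groups was larger than that of the nuclear genes. The pooled SD of log2 CPM within groups had a median of 0.29 over the 13 mt- genes (0.24 to 0.39), 0.12 over the 81 nuclear genes (0.033 to 0.34) and 0.13 over all genes tested. mt-Co1 stood at 14052, 12346 and 12508 CPM in WT controls, 12924, 11346, 22569 and 16246 in G793A controls, 12704, 14011, 12332 and 15049 in WT PLX3397, 11653, 17098, 11820.4 and 12832 in G793A PLX3397, 10507, 13745, 10944 and 11431 in WT PLX5622 and 11518, 14863, 20887 and 10886 in G793A PLX5622. Replicate 3 of G793A control, replicate 2 of G793A PLX3397 and replicate 3 of G793A PLX5622 stood highest in their groups. mt-Nd5, a proton-pumping subunit of complex I, followed with 2779, 2582 and 2752 CPM in WT controls, 2378, 2449, 4722 and 3350.1 in G793A controls and 2626, 3396, 4709 and 2246 in G793A PLX5622. mt-Cytb, the only mitochondrially encoded subunit of complex III, stood at 4896, 4098 and 4232 CPM in WT controls, 4497, 3795, 7863 and 5575 in G793A controls and 3964, 4893, 6531 and 3573 in G793A PLX5622. In both genes replicate 3 of G793A control and of G793A PLX5622 was again highest.

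The mt- genes differed several-fold among themselves in level. On the CPM per kb scale, as mean ± SD over 23 libraries, complex IV held both ends, with mt-Co1 at 8844 ± 1990.4, mt-Co3 at 5299 ± 1016 and mt-Co2 at 1414 ± 417. The ATP synthase membrane subunits mt-Atp8 and mt-Atp6, whose reading frames overlap, stood at 7289 ± 1588 and 5534 ± 1227, and mt-Cytb at 4014 ± 887. The 7 membrane subunits of complex I ran from mt-Nd1 (4159.7 ± 911) through mt-Nd3 (2852 ± 556), mt-Nd4 (2772 ± 593), mt-Nd2 (2668 ± 589.5), mt-Nd4l (2324 ± 506) and mt-Nd5 (1628 ± 379) to mt-Nd6 (1512 ± 344). Neighbours such as mt-Nd3, mt-Nd4 and mt-Nd2 lay within 1 SD of each other, and the order is limited by the shared copies described above. The part of the oligo-dT selection in this order was not tested. Counts were divided by the whole transcript length, at the shortest 204 bases, with no allowance for fragment length.

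Among nuclear genes, the steadiest within groups were Atp5a1 (pooled SD of log2 CPM 0.033), Sdha (0.036), Ndufa9 (0.038) and Atp5b (0.046), and the least steady were the low isoforms Cox7a1 (0.34), Cox4i2 (0.32) and Cox6b2 (0.31), followed by Atp5g2 (0.28). Cox7a1 stood at 1.86, 0.921 and 1.78 CPM in WT controls and 1.45, 1.05, 2.46 and 1.74 CPM in G793A controls, with overlapping groups. Ndufb4, an accessory subunit with the largest spread in complex I (0.19), stood at 20.8, 16.2 and 15.2 and 18.8, 18.4, 29.3 and 22.97 CPM.

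No respiratory chain gene was called in WT mice on either inhibitor, the groups in which the microglial markers fell. With PLX3397, 0 of 81 nuclear and 0 of 13 mt- genes passed the test by edgeR, and 0 by DESeq2 and limma-voom, against 1.52% of all genes tested, and with PLX5622 likewise 0 and 0, against 1.66%. The median log2 fold change was -0.017 for the nuclear and 0.061 for the mt- genes with PLX3397, and 0.0045 and -0.12 with PLX5622, beside 0.0075 and 0.0074 over all genes. The sign of both nuclear medians turned with 1 WT control left out: without replicate 1 that of PLX3397 was 0.050, and without replicate 3 that of PLX5622 was -0.035. In bulk tissue, fewer cells of a type and less RNA per cell cannot be told apart.

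At an unadjusted p under 0.05 a single nuclear gene was found in each comparison, Cox6a2 with PLX3397 (8.21% of all genes) and Ndufa10 with PLX5622 (8.43% of all genes), and no mt- gene. mt-Nd6 did not overlap between WT PLX3397 and WT control, against 4.96% of all genes with every WT PLX3397 library higher: it stood at 693, 661 and 679.9 CPM in WT controls and 793.3, 822, 723 and 857 CPM in WT PLX3397 (log2 fold change 0.24 ± 0.22, unadjusted p = 0.293 and adjusted p = 0.852 by edgeR). Cox6a2 stood at 6.20, 4.60 and 5.82 CPM in WT controls and 4.86, 4.56, 4.78 and 3.99 CPM in WT PLX3397, with overlapping groups and a log2 fold change of -0.29 ± 0.13 (edgeR adjusted p = 0.55). Ndufa10, an accessory subunit of complex I named here after its value was seen, stood at 103 ± 1.64 CPM (SD, n = 3) in WT controls and 113 ± 8.16 CPM (SD, n = 4) in WT PLX5622, also overlapping (log2 fold change 0.13 ± 0.061).

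The intervals show what size of change these data leave room for. In both comparisons the 95% interval of 77 of the 81 nuclear genes lay within ±0.5 on the log2 scale, with a median reach of 0.17 to each side. The exceptions were low genes such as Cox7a1, whose interval with PLX3397 was -0.91 to 0.17. The mt- genes were less sharply bounded, with a median reach of 0.45: for mt-Co1 the interval was -0.39 to 0.51 with PLX3397 and -0.60 to 0.30 with PLX5622. Sdha, the flavoprotein of complex II, stood at 457, 446 and 469 CPM in WT controls, 467, 457, 467 and 471 in WT PLX3397 and 467, 458, 459.8 and 459.6 in WT PLX5622, with intervals of -0.062 to 0.11 and -0.076 to 0.10. Atp5b stood at 1216, 1107 and 1135, 1123, 1147, 1129.7 and 1133 and 1174, 1107, 1130.0 and 1164 CPM in the same groups, with intervals of -0.12 to 0.073 and -0.11 to 0.086. The chow groups overlapped in both genes.

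PLX3397 and PLX5622 were given at different doses, so their values are set side by side. Between WT PLX5622 and WT PLX3397, 0 of 94 genes passed the test (0% of all genes tested) and 0 at an unadjusted p under 0.05 (4.1% of all genes tested). The mt- genes had a median log2 difference of -0.21 (12 of 13 lower in WT PLX5622) and the nuclear genes one of 0.013. The largest mt- difference was that of mt-Co2, the copper-binding subunit of complex IV, at -0.44 ± 0.27, from 755, 1335, 1031 and 1161 CPM with PLX3397 and 942, 996, 603 and 622 CPM with PLX5622, and the groups overlapped.

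G793A controls carried higher values of nearly all respiratory chain genes than WT controls, but no gene passed the test. The log2 fold change was positive for 79 of the 81 nuclear and 13 of the 13 mt- genes, with medians of 0.21 and 0.28 beside -0.0063 over all genes. At an unadjusted p under 0.05, 57 nuclear genes (70.4%) and 0 mt- genes were higher, against 5.9% of all genes tested. With adjustment none was called (0 of 81 and 0 of 13, against 0% of all genes, by edgeR, DESeq2 and limma-voom alike), the smallest adjusted p of a nuclear gene being 0.358 (edgeR). In 0 of the 94 genes did every G793A control library exceed every WT control library, against 2.73% of all genes.

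By complex the median log2 fold change was 0.22 for nuclear complex I (28 of 36 genes at an unadjusted p under 0.05), 0.10 for complex II (2 of 4), 0.23 for complex III (6 of 8), 0.23 for complex IV (11 of 16) and 0.20 for complex V (10 of 17). In the mt- genes it ran from 0.23 (mt-Nd4l) to 0.41 (mt-Co2), with the smallest unadjusted p for mt-Co3 (0.34 ± 0.17, edgeR adjusted p = 0.472). The largest nuclear value was that of Atp5e, the epsilon subunit of ATP synthase (0.46 ± 0.15), and the lowest that of Ndufs1, the largest iron-sulfur subunit of complex I (-0.047 ± 0.046), both named after their values were seen. The complex I core subunits had a median of 0.13 and the accessory subunits one of 0.23. Their median transcript lengths also differed, at 1623 and 683 bases, so subunit type and length cannot be told apart here.

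Cox4i1, the main isoform of the largest nuclear-encoded complex IV subunit, stood at 401, 336 and 334 CPM in WT controls and 394, 360.2, 553 and 429.9 CPM in G793A controls. G793A control replicate 3 was highest and replicate 2 lay within the WT range. The log2 fold change was 0.28 ± 0.10 (edgeR adjusted p = 0.358). Ndufa13, an accessory subunit of complex I also known as GRIM-19, stood at 104, 90.3 and 94.2 and 111, 98.6, 135 and 112 CPM (log2 fold change 0.25 ± 0.075, edgeR adjusted p = 0.358), and Atp5l, the g subunit of the ATP synthase membrane part, at 124, 107 and 105 and 134, 115, 169.9 and 145 CPM (0.33 ± 0.094, edgeR adjusted p = 0.358). The order of the libraries was alike in these genes, with replicate 3 at the top and replicate 2 among the WT controls. Uqcr11, a small subunit of complex III, stood at 86.0, 67.6 and 65.5 and 84.2, 72.2, 121 and 92.1 CPM, and Cox5b, a zinc-binding subunit of complex IV, at 162, 147 and 142 and 169.9, 154, 206 and 178 CPM. Sdhd, a membrane anchor of complex II, stood at 86.3, 75.8 and 76.1 and 89.2, 80.9, 99.1 and 91.5 CPM.

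Atp5b, Sdha and Uqcrc2, all abundant, had intervals that were narrow and included 0. Atp5b stood at 1216, 1107 and 1135 CPM in WT and 1177, 1105, 1238 and 1187 CPM in G793A controls, with a log2 interval of -0.068 to 0.13. Sdha stood at 457, 446 and 469 and 479.8, 439.1, 449 and 464 CPM, with an interval of -0.086 to 0.088. Uqcrc2, a core protein of complex III, stood at 233, 217 and 214 and 212, 221, 240.1 and 228 CPM, with an interval of -0.08 to 0.13.

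**Figure D2:**
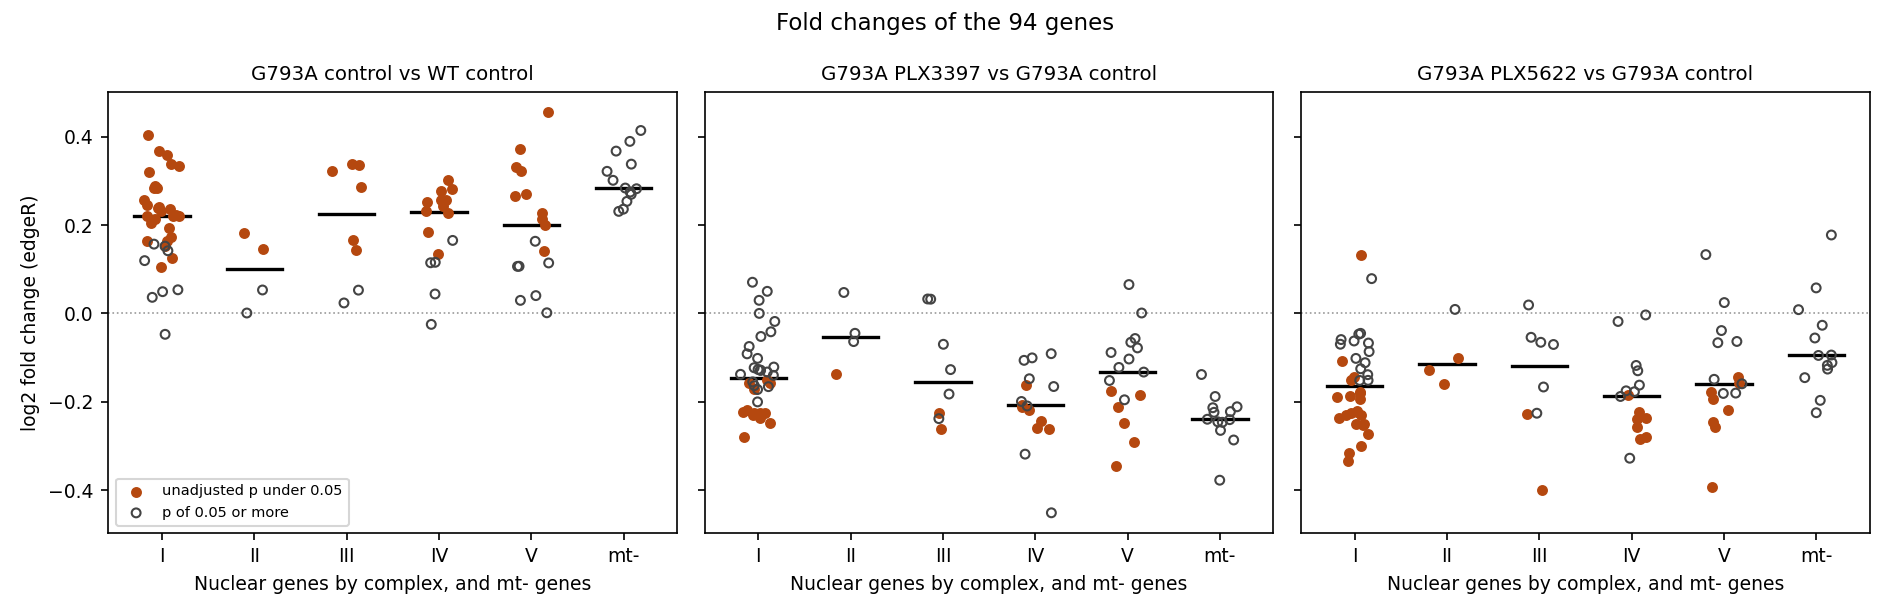
Log2 fold change of each of the 94 genes, nuclear genes by complex and mt- genes last, in G793A control against WT control (left), G793A PLX3397 against G793A control (middle) and G793A PLX5622 against G793A control (right), which share the G793A control libraries. Filled points have an unadjusted p under 0.05 (edgeR), open points do not, and bars are medians; no point has an adjusted p under 0.05, and the nuclear medians over all complexes are 0.21, -0.15 and -0.17.

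The 4 G793A control libraries were far apart. Relative to the mean of the WT controls, the median over nuclear genes was 0.16, -0.011, 0.46 and 0.22 in replicates 1 to 4 and the median over mt- genes -0.0025, -0.14, 0.80 and 0.33, while the WT controls themselves spanned -0.078 to 0.12 for the nuclear genes. In replicate 3, 74 of the 81 nuclear genes exceeded the highest WT control, in replicate 4, 60, in replicate 1, 49 and in replicate 2 only 2. Without replicate 3 the medians were 0.12 for the nuclear and 0.059 for the mt- genes, with 18 nuclear genes at an unadjusted p under 0.05. The share of all genes at that p in this fit is not given here. Without replicate 2, 29 of the 81 nuclear genes were called higher (1.18% of all genes tested) and 0 of the 13 mt- genes.

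Those 29 comprised 15 genes of complex I, 1 of complex II, 2 of complex III, 4 of complex IV and 7 of complex V. Ndufa6, an accessory subunit of complex I, had a log2 fold change of 0.44 ± 0.078 in that fit, Atp5l one of 0.42 ± 0.084, and Ndufa13 one of 0.31 ± 0.07. Genes outside the respiratory chain were called in the same fit: 31 of 82 cytosolic ribosomal protein genes and 101 of 1236 other genes under 1000 bases were called higher, and of 4626 genes of 4000 bases or more 1 was called higher and 153 lower.

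**Figure D3:**
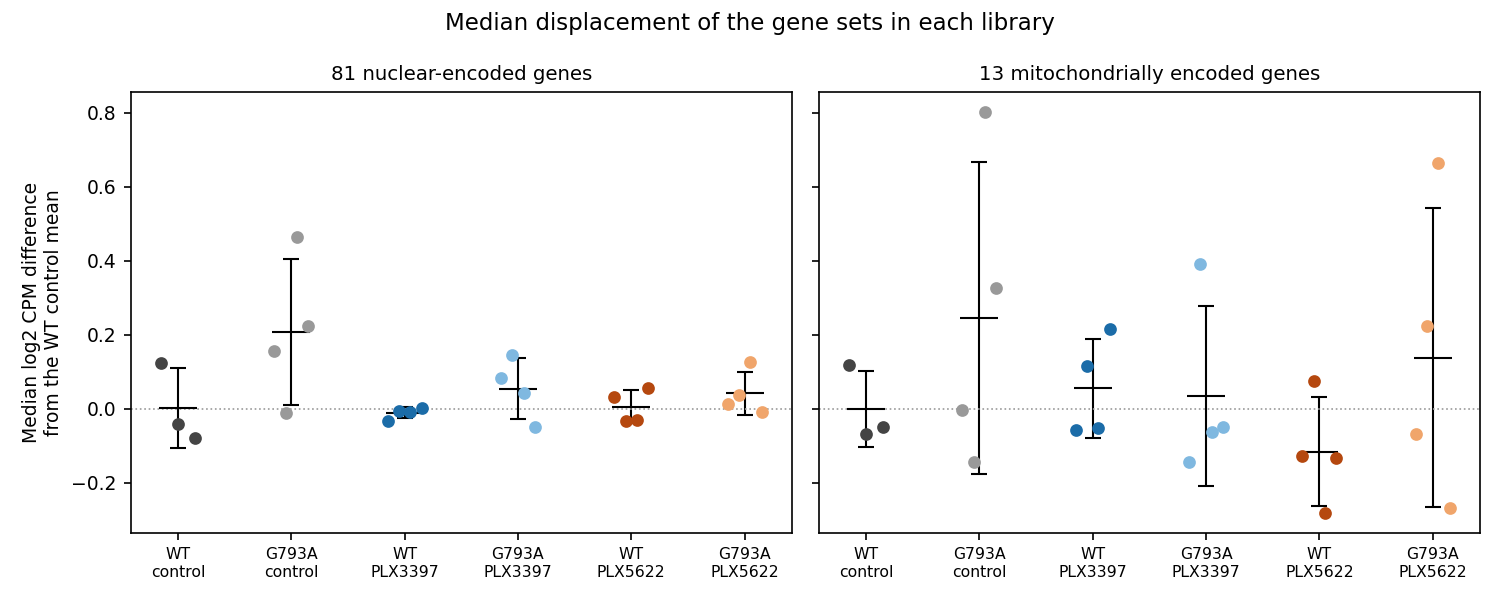
Median log2 CPM difference from the WT control mean over the 81 nuclear genes (left) and the 13 mt- genes (right) in each library, by group, with the group mean and 1 SD. G793A control replicate 3 stands highest in both panels, at 0.46 and 0.80, and G793A PLX5622 replicate 3 is high among the mt- genes at 0.66 but at 0.13 among the nuclear genes.

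Transcript length moved with this difference. The nuclear genes have short transcripts, with a median of 704 bases (315 to 3171) against 2811 over all genes tested. In the fit with all libraries the median log2 fold change of G793A against WT controls was 0.24 over the 56 nuclear genes under 1000 bases and 0.12 over the 25 longer ones. Outside the respiratory chain it was 0.14 over 1236 other genes under 1000 bases, 0.26 over 82 cytosolic ribosomal protein genes and -0.074 over 4626 genes of 4000 bases or more. Atp5a1, Sdha, Ndufs1 and Atp5b, with 2471, 2900, 2590 and 1916 bases, had log2 fold changes of 0.0016, 0.001, -0.047 and 0.03, and were picked as examples after these values were seen. With a smooth trend along length and GC content removed from each library, the nuclear median was 0.095 and the mt- median 0.22. At an unadjusted p under 0.05 there were then 25 nuclear genes, and the share of all genes is not given here. With the trend removed and G793A control replicate 2 left out, 0 nuclear genes were called and the nuclear median was 0.13.

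**Figure D4:**
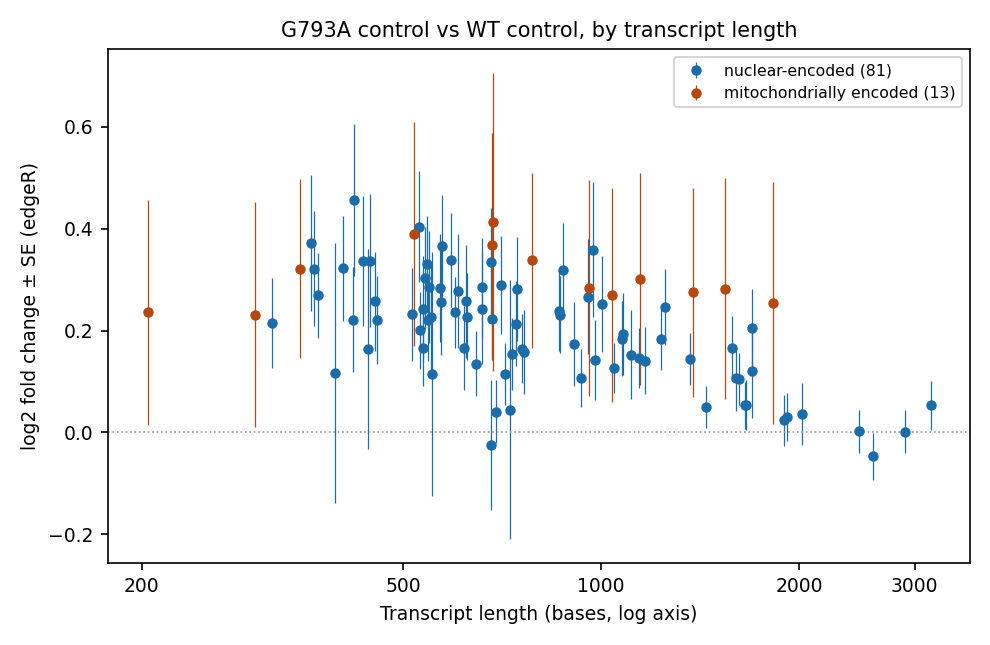
Log2 fold change ± SE (edgeR) of each of the 94 genes in G793A control against WT control, plotted against transcript length on a log axis. Nuclear genes under 1000 bases have a median of 0.24 and longer ones a median of 0.12, while the 13 mt- genes lie between 0.23 and 0.41 at all lengths.

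Inhibitor chow in G793A mice was set against the same G793A controls, so the values below share those libraries with the comparison above. With PLX3397, 0 of 81 nuclear and 0 of 13 mt- genes passed the test (0.00617% of all genes tested), with medians of -0.15 and -0.24. At an unadjusted p under 0.05, 29 nuclear genes and 0 mt- genes were lower, against 5.7% of all genes, and 0 had all G793A PLX3397 libraries below all G793A controls (2.1% of all genes). Without G793A control replicate 3 that count was 0 and the medians were -0.070 and -0.021, and without replicate 2 the count was 61. With PLX5622, 0 and 0 genes passed (0% of all genes tested), with medians of -0.17 and -0.095. At an unadjusted p under 0.05, 41 nuclear genes were lower, against 7.85% of all genes, and 6 nuclear genes did not overlap between the groups, against 2.86% of all genes. Without G793A control replicate 3, 15 nuclear genes had an unadjusted p under 0.05, and without replicate 2, 64. For the counts with a library left out, with either inhibitor, the share of all genes is not given here. The sign of the mt- median rested on single libraries: it was 0.13 without G793A control replicate 3, 0.016 without G793A PLX5622 replicate 4 and -0.30 without G793A PLX5622 replicate 3.

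The 6 genes, named after their values were seen, were Ndufa11, Ndufa13, Ndufs7, Ndufv1, Uqcr11 and Atp5d. Ndufa13 stood at 111, 98.6, 135 and 112 CPM in G793A controls, 94.3, 95.1, 93.6 and 94.6 in G793A PLX5622 and 109, 111, 102 and 95.5 in G793A PLX3397. The PLX5622 libraries were all below every control and close to one another, and the PLX3397 libraries overlapped the controls. The log2 fold change was -0.27 ± 0.069 with PLX5622 (edgeR adjusted p = 0.148, the smallest among the nuclear genes) and -0.13 ± 0.069 with PLX3397. Uqcr11 stood at 84.2, 72.2, 121 and 92.1 CPM in G793A controls, 70.2, 69.5, 71.3 and 68.6 in G793A PLX5622 and 84.4, 87.8, 73.7 and 66.7 in G793A PLX3397, with -0.40 ± 0.12 for PLX5622 (edgeR adjusted p = 0.155) and -0.24 ± 0.12 for PLX3397. Ndufv1, the NADH-binding subunit of complex I, stood at 168, 153, 161 and 156 and 149, 145, 148 and 149.7 CPM, Atp5d, the delta subunit of the ATP synthase head, at 163, 145, 159 and 143 and 139, 133, 136 and 139.9 CPM, and Ndufs7, a core iron-sulfur subunit of complex I, at 71.6, 64.0, 78.3 and 67.5 and 63.0, 61.2, 59.8 and 63.2 CPM. DESeq2 called 2 nuclear genes in this comparison, Ndufa13 and Uqcr11 (log2 fold changes -0.27 and -0.40), among 2.1% of the genes for which it gave an adjusted p.

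The same PLX5622 libraries overlapped the WT controls in these genes. Ndufa13 had a log2 fold change of -0.027 ± 0.074 and Uqcr11 one of -0.063 ± 0.13 in G793A PLX5622 against WT controls. Cox4i1 stood at 345, 357, 416 and 356 CPM in G793A PLX5622 and 375, 415, 359 and 344 CPM in G793A PLX3397, beside 334 to 401 CPM in the WT controls. Leaving out G793A control replicate 2 gave 37 nuclear genes called lower with PLX5622 (2.71% of all genes tested were called lower), 20 of them of complex I, 1 of complex II, 1 of complex III, 8 of complex IV and 7 of complex V, beside 154 of 1236 other genes under 1000 bases. In that fit the median log2 fold change was -1.16 over 3 choroid plexus markers and -0.74 over 4 erythroid markers. It was -1.31 over 3 pituitary markers and 3.42 over 2 cerebellar markers. Of all these markers 0 were called, and 1 of 6 neuronal markers was called higher. Cerebellar markers summed to 17.4 to 418 CPM in G793A PLX5622, with a median inside the range of all G793A controls (16.4 to 24.2 CPM). In these groups only G793A PLX5622 replicate 2 had Cbln3 over 10 CPM, so 3.42 does not describe the whole group. Pituitary sums were low and overlapped, at 0.828 to 6.40 CPM in G793A PLX5622 and 1.34 to 5.61 CPM in G793A controls. The part of these markers in the respiratory chain values was not tested. Leaving out replicate 3 gave 0 called and nuclear medians of -0.07 with PLX3397 and -0.081 with PLX5622. With the length and GC trend removed, replicate 2 in or out, 0 nuclear genes were called.

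**Figure D5:**
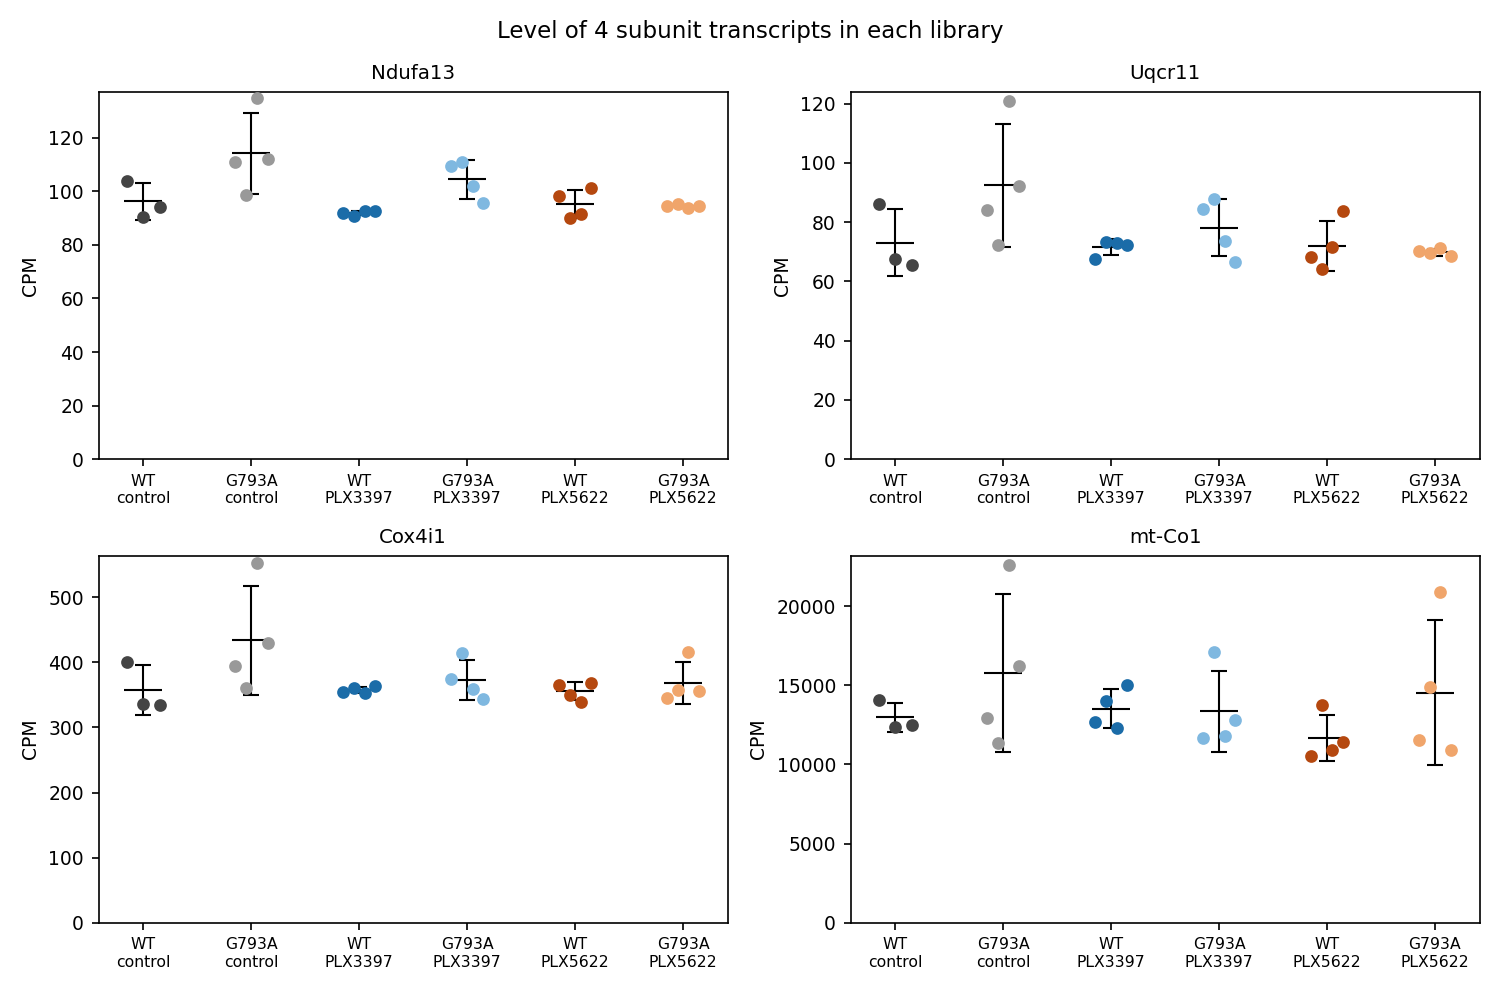
CPM of Ndufa13, Uqcr11, Cox4i1 and mt-Co1 in each library, by group, with the group mean and 1 SD. In the first 3 genes the G793A controls spread upwards to replicate 3 (135, 121 and 553 CPM) while the inhibitor groups lie near the WT controls, and in mt-Co1 replicate 3 of both G793A control and G793A PLX5622 stands high (22569 and 20887 CPM).

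The G793A mice on inhibitor were also compared with WT controls, the comparison that asks whether the allele holds off the inhibitors' effects. With PLX3397, 0 of 81 nuclear and 0 of 13 mt- genes passed the test (0.00617% of all genes tested), with medians of 0.057 and 0.042, and 1 nuclear gene had an unadjusted p under 0.05 (7.24% of all genes): Ndufv1 at 0.12 ± 0.049 (these genes were named after their values were seen). With PLX5622, 0 and 0 passed (0% of all genes tested), with medians of 0.043 and 0.16, and 3 nuclear genes and 1 mt- gene had an unadjusted p under 0.05 (6.76% of all genes): Ndufa10 at 0.17 ± 0.061, Ndufa6 at 0.21 ± 0.093, Atp5g1 at -0.14 ± 0.062 and mt-Co3 at 0.40 ± 0.17. mt-Co3, a core subunit of complex IV, stood at 3873, 3254 and 3756 CPM in WT controls and 3907, 4605, 6616 and 3962 CPM in G793A PLX5622. Every library there was above every control and replicate 3 was highest (edgeR adjusted p = 0.709). Every library was also above every control in Ndufa10 with PLX5622, and in Atp5a1 and Ndufv3 with PLX3397. The share of all genes without overlap is not given here for these comparisons. In the PLX5622 comparison the mt- median turned to -0.031 without G793A PLX5622 replicate 3, and the nuclear median to -0.0011 without WT control replicate 3. In the PLX3397 comparison the mt- median turned to -0.074 without G793A PLX3397 replicate 2. Without WT control replicate 1 the nuclear median was 0.13, with 11 genes at an unadjusted p under 0.05 (share of all genes not given).

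Within the G793A genotype, 0 of 94 genes differed between PLX5622 and PLX3397 by the test (0.00617% of all genes tested), with medians of -0.013 for the nuclear and 0.14 for the mt- genes. At an unadjusted p under 0.05 there were 4 nuclear genes (6.85% of all genes), Ndufv1, Ndufa13, Ndufv3 and Uqcrc1, all lower with PLX5622. The signs of these medians rested on single libraries: the nuclear one was 0.026 without G793A PLX3397 replicate 2 and the mt- one -0.072 without G793A PLX5622 replicate 3. Ndufv1 stood at 169, 173, 161 and 168 CPM with PLX3397 and 149, 145, 148 and 149.7 CPM with PLX5622 (log2 difference -0.18 ± 0.045, edgeR adjusted p = 0.657). In Ndufv1, Ndufa13, Ndufv3 and Uqcrc1 alike the groups did not overlap. The share of all genes without overlap is not given here.

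The interaction term asks whether an inhibitor's log2 fold change differed between genotypes. For PLX3397, 0 of 94 genes passed (0.555% of all genes tested), with medians of -0.12 for the nuclear and -0.30 for the mt- genes, and 6 nuclear genes had an unadjusted p under 0.05 (4.12% of all genes). For PLX5622, 0 of 94 genes passed (0.808% of all genes tested), with medians of -0.17 and 0.033, and 9 nuclear genes had an unadjusted p under 0.05 (7.44% of all genes). In all of these genes the inhibitor's log2 fold change, not the level itself, was lower in G793A than in WT mice. Left-out libraries moved these values, and the share of all genes in those fits is not given here. For PLX3397 the medians were -0.029 and -0.091 without G793A control replicate 3, and 31 nuclear genes had an unadjusted p under 0.05 without replicate 2 against 0 without WT PLX3397 replicate 2. For PLX5622 the nuclear median was -0.077 without G793A control replicate 3 and -0.25 without replicate 2, which gave 49 genes at that p, and WT control replicate 3 left out gave 3. The mt- median ran from -0.18 without G793A PLX5622 replicate 3 to 0.21 without G793A control replicate 3. Of the 6 microglial markers, 6 were called in each of the 2 interactions. The 95% intervals of 57 and 55 of the 81 nuclear genes lay within ±0.5 for PLX3397 and PLX5622, and those of 0 of the 13 mt- genes.

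The balance of nuclear and mitochondrial transcripts was summarised as the ratio of summed mt- counts to summed nuclear counts in each library. It was 4.03, 3.84 and 4.12 in WT controls, 3.82, 3.65, 5.42 and 4.48 in G793A controls, 4.02, 4.44, 3.97 and 4.70 in WT PLX3397, 3.44, 4.79, 3.71 and 4.07 in G793A PLX3397, 3.52, 4.26, 3.41 and 3.53 in WT PLX5622 and 3.74, 4.71, 6.04 and 3.49 in G793A PLX5622. The ranges overlapped in all 9 comparisons of groups. Among these 9, the largest difference of group means on the log2 scale was -0.22, between WT PLX5622 and WT PLX3397, where 3 of the 4 PLX5622 libraries lay below every PLX3397 library. G793A PLX5622 replicate 3 reached the highest ratio with a nuclear share of only 1.08% of counts, whereas G793A control replicate 3 was high in both sets. In G793A PLX5622 replicate 3 the nuclear median lay 0.13 above the WT control mean on the log2 scale and the mt- median 0.66 above it.

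The mt- values were also read by how much of a gene is shared with copies. The 6 mt- genes that share no more than 50% of their words had a median log2 fold change of 0.28 in G793A against WT controls and the 7 others one of 0.32, and in WT PLX5622 against WT controls the values were -0.10 and -0.13. The nuclear values were read by promoter letters, with no test. In G793A against WT controls the nuclear genes with NRF1 letters had a median of 0.23 (20 genes) and those without one of 0.20 (47), and those with and without ETS letters 0.26 (17) and 0.20 (50).

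Other genes of mitochondrial function were read from lists of assembly factors, ribosomal proteins, enzymes and regulators. None of the listed genes was called in the 9 comparisons of groups or the 2 interactions. In G793A against WT controls the median log2 fold change was 0.10 over 16 complex I assembly factors (2 at an unadjusted p under 0.05), 0.15 over 6 of complex III (3), 0.10 over 23 of complex IV (6) and 0.19 over 5 of complex V (4). It was 0.12 over 75 mitochondrial ribosomal proteins, of which 29 were higher and 1 lower at an unadjusted p under 0.05. The 17 enzymes of the tricarboxylic acid cycle, which feed NADH and succinate to the chain, had a median of 0.033 with 0 at that mark, and 26 factors of mitochondrial transcription and biogenesis one of -0.038, with 2 higher and 4 lower. In WT mice the tricarboxylic acid cycle medians were 0.02 with PLX3397 and 0.0094 with PLX5622, and those of the mitochondrial ribosomal proteins -0.0079 and 0.012.

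Markers of other cell types were read beside the G793A control difference. Neuronal markers summed to 5915 to 6855 CPM in WT and 5715 to 6583 CPM in G793A controls, astrocytic ones to 1260.0 to 1355 CPM and 1188 to 1662 CPM, oligodendrocytic ones to 4639 to 5706 CPM and 4419 to 6128 CPM, and erythroid ones to 171 to 303 CPM and 132 to 451 CPM. Choroid plexus markers summed to 407 to 699 CPM in WT and 230.0 to 1123 CPM in G793A controls, and pituitary markers to 0.980 to 3.47 CPM and 1.34 to 5.61 CPM, with a pituitary median log2 fold change of 2.78 without G793A control replicate 2. The ranges overlapped in each list, 0 of their genes were called, and their part in the respiratory chain values was not tested.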

How the data were processed

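Brain RNA from 23 mouse libraries was purified with the RNeasy mini kit and made into TruSeq Stranded mRNA libraries selected with oligo-dT beads, per the labels' protocols. Per the submitters' processing notes the build was GRCm39 and the tools included kallisto 0.46.1, DESeq2 1.26.0 and FastQC 0.11.9. How transcripts were summed to genes is not stated there. The deposited count table holds estimated counts per gene, as the authors made them with kallisto, and 45.31% of its values are not whole. A second deposited table holds variance-stabilised log2 values of the authors for 15577 entries, used only as an alternative.

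Estimated counts were rounded and tested with edgeR 4.0.16 (R 4.3.3; robust quasi-likelihood, TMM scaling after a filter at a minimum count of 10 and total of 15), with 1 term per group over all libraries and Benjamini-Hochberg adjustment over 16209 genes. A gene was called at an adjusted p under 0.05. Fold changes are on the log2 scale with SE and 95% intervals; the common coefficient of variation between libraries was 0.09975. CPM values of libraries and groups divide a gene's counts by its library's total over the tested genes times its TMM factor. The mean CPM of the selection rule and the percent shares of a library use the total over all named genes. The row without a name held 0.00829% to 0.0151% of counts and was left out. Transcript length and GC content came from GENCODE vM21 (GRCm38), matched by symbol for 99.39% of genes tested, and promoters from RefSeq (GRCm38.p6). The edgeR fit was tested on simulated counts. DESeq2 1.42.0, limma 3.58.1 (voom), other scalings and filters, a replicate block, a length and GC correction and leaving out libraries were tried. Leaving out the libraries with cerebellar, Npas4 or high mt- counts, and combining the length correction with leaving out G793A control replicate 2, were chosen after seeing the data.

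Groups follow the labels. The genes described and the lists beside them were chosen with earlier results of these data known. Named were all mt- genes, per complex the nuclear gene with the highest CPM, the smallest p and the largest spread, and isoform pairs; other genes named were chosen after their values were seen. The values of 1 gene that this rule names are not reported here, though the counts and medians include it. Depth limits the low isoforms most.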

Additional observations from a re-analysis of the deposited data

Results flagged for a closer look

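Of 190 pairs of a group of 4 libraries and a measure, 15 had a highest or lowest library whose gap to the nearest other, divided by the group's range, was above 0.829. Chance flags about 1 in 20 such pairs, or 9.5 here, and the genes share libraries, so the 15 are not independent.

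In G793A PLX3397, replicate 2 stood above the other 3 libraries for 6 mt- genes. It had 1857 CPM of mt-Atp8 (1348 to 1390 in the others, n = 3 here and below), 5744 CPM of mt-Cytb (4039 to 4174), 3518 CPM of mt-Nd2 (2422 to 2515), 1160.1 CPM of mt-Nd3 (902 to 915), 4744 CPM of mt-Nd4 (3268 to 3443) and 879 CPM of mt-Nd4l (583 to 625.1). This library is also among the libraries with Npas4 over 100 CPM, whose part in these values was not tested.

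WT PLX5622 replicate 2 had 3825 CPM of mt-Nd4 (3039 to 3152), 698 CPM of mt-Nd4l (559 to 571) and a log2 ratio of mt- to nuclear counts of 2.09 (1.77 to 1.82). G793A PLX5622 replicate 3, which is high in mt- genes, had 416 CPM of Cox4i1 (345 to 357) and 185 CPM of Cox6a1 (153 to 156). WT PLX3397 replicate 1 had 67.7 CPM of Uqcr11 (72.4 to 73.2). Of the low isoforms, Cox7a1 stood at 0.820 CPM in WT PLX3397 replicate 4 (1.28 to 1.32) and 1.07 CPM in G793A PLX3397 replicate 4 (1.24 to 1.2599), and Cox6a2 at 5.64 CPM in G793A PLX3397 replicate 1 (4.34 to 4.46).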

How the results depend on the processing

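Of 512 recomputed counts of called genes, 509 kept the main value within 1.5 times. Every main count was 0, so this says only that few alternatives called any of these genes. Medians, which have no test, were less settled: with 1 library left out, 8 of 97 nuclear and 10 of 97 mt- medians had the other sign, and under the other alternatives 8 of 159 and 7 of 159. Of the values of single named genes, 8690 stayed within 1 SE, 255 moved by more than 1 SE and 15 became called. The 3 counts that changed were of nuclear genes. DESeq2 called 2 in G793A PLX5622 against G793A control, where edgeR called 0. With 1 library left out at a time, the count ran from 0 to 29 in G793A control against WT control and from 0 to 37 in G793A PLX5622 against G793A control; in both the highest count came without G793A control replicate 2 and every other library left out gave 0. The cause was not tested. With the length and GC trend also removed, both counts were 0. The nuclear median ran from 0.12 to 0.28, from -0.22 to -0.070 (G793A PLX3397 against G793A control) and from -0.24 to -0.081 when 1 library was left out.

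With the replicate number as a block (replicate block), 0 nuclear genes were called in G793A control against WT control and the nuclear median was 0.21. In that fit 51 nuclear genes had an unadjusted p under 0.05, and the share of all genes is not given here. The block changed no other call. Same-numbered libraries of different groups did not deviate together (median r 0.00553 over 55 pairs, 0.00150 over 165 other pairs), so the numbers were taken as names only. No pair of replicates agreed within sampling noise (chi-square per degree of freedom 6.05 to 76.4 over 33 pairs).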
